A study of Mus musculus with 9 samples.

Results

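The cytosolic ribosomal protein genes of layer IV of the mouse barrel cortex were followed across the 3 Gap43 genotypes. Members were the probe sets whose platform annotation gave 1 gene symbol, and that symbol named a protein of the large (Rpl, Rplp) or small (Rps, Rpsa) subunit. This gave 100 probe sets of 48 genes, out of 22690 probe sets on the array. The large subunit had 46 probe sets of 26 genes and the small subunit 54 probe sets of 22 genes. After a filter on low signal that kept 13576 probe sets in all, 86 probe sets of 46 genes remained, 42 probe sets of 24 large subunit genes and 44 probe sets of 22 small subunit genes. The paralogs Rpl3l and Rpl39l dropped out at this step. Another 102 probe sets carried a ribosomal protein symbol together with other symbols, mostly those of pseudogenes and predicted genes, and stood outside the rule. They named 41 ribosomal protein genes, 27 of which had no probe set of their own, Rplp1 and Rpl5 among them.

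Pups of the C57BL/6 strain were sampled on postnatal day 5 in 3 genotypes, Gap43 knockout (KO), heterozygous (HZ) and wild type (WT), with 3 mice and 1 array a mouse. Gap43 encodes a growth cone protein of neurons. The labels name no treatment and no limit of the knockout to a cell type. Layer IV was cut out by laser microdissection, and the RNA went through 2 cycles of cDNA synthesis before it was labelled with biotin. Values are MAS5 signals, a linear probe set intensity that the authors had scaled to 1 common level per array, and all log2 changes below are of the signal plus 16.

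The ribosome is built from ribosomal RNA and a fixed set of proteins, most of them present once per particle, and their genes are usually expressed together. The large subunit forms peptide bonds and carries the stalk that recruits elongation factors, and the small subunit binds the message and decodes it. In vertebrates the messages of ribosomal proteins start with a run of pyrimidines, the terminal oligopyrimidine tract, through which mTOR signalling controls their translation, and in neurons they are also found in growing axons. Microarrays measure the amount of message and not its translation.

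Promoter windows are shown for 8 members whose values are described in the text, with the start of these messages as RefSeq places it. A pyrimidine run stood in 7 of the 8 windows, though not always near that start. Runs anywhere in such a window were not counted over all promoters, so that this count has no share to be set against. The windows are examples and do not cover every member described. Each window covers 20 bases before the start and 30 from the start on, on the strand of the gene in assembly GRCm38.p6, and capitals mark the longest run of a C followed by 4 or more C or T.
Rpl27a (chr7:109519175-109519224, plus strand): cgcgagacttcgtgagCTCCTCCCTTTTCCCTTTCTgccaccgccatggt
Rpl35 (chr2:39005102-39005151, minus strand): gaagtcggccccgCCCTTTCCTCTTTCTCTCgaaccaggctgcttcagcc
Rps10 (chr17:27635215-27635264, minus strand): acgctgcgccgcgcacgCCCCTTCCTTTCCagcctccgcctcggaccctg
Rps6 (chr4:86857338-86857387, minus strand): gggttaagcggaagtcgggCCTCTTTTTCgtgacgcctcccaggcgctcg
Rplp2 (chr7:141447631-141447680, plus strand): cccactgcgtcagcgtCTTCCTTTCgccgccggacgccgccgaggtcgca
Rps25 (chr9:44407694-44407743, plus strand): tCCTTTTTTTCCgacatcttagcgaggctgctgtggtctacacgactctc
Rplp0 (chr5:115559447-115559496, plus strand): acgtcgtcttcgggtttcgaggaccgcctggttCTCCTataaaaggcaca
Rpl27 (chr11:101442225-101442274, plus strand): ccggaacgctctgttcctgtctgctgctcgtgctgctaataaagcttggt

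The run was 20 bases long in Rpl27a, 18 in Rpl35, 13 in Rps10, 10 in Rps6 and 9 in Rplp2, in all 5 of them beginning at most 7 bases before the annotated start. In Rps25 the run of 11 bases began 19 bases before that start and ended ahead of it. In Rplp0 it was 5 bases long and began 14 bases into the transcript as annotated, and the window of Rpl27 held none. RefSeq promoters were matched for 42 of the 48 genes, 50 promoters in all. Rpl7, Rpl8, Rps14, Rps20, Rps29 and Rps4l were not among them. A C within 5 bases of the annotated start, followed by 4 or more C or T, stood in 21 of the 50 promoters (42.0%). Of all 32851 promoters in the table, 6027 had one (18.3%). Such a C could lie inside a run that began farther before the start. Searched on both strands over the 300 bases, ACTTCCG stood in 13 of 50 (26%), against 6.4% of all promoters. CTTTC, which is often part of such runs, stood in 41 of 50 (82.0%), against 57.3% of all. AAGATGG stood in 7 of 50 (14.0%), against 6.3% of all, and TATAAA in 6 of 50 (12%), against 13.6% of all. These are matches of letters and not measured sites. The 48 genes lay on 17 chromosomes, with at most 7 on any of them.

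Gap43, the targeted gene, set the KO arrays apart but did not tell HZ from WT arrays, so that it checked the KO labels only. Its signal was 979, 1930 and 1299 in the KO mice, 5015, 5039 and 4389 in the HZ mice, and 7089, 4746 and 4294 in the WT mice. All 3 KO arrays lay below every HZ and WT array, and it was the 1 probe set of 13576 called after adjustment between KO and WT (0.00737% of those tested, log2 change -1.95, adjusted p = 0.0173) and between KO and HZ (0.00737%, log2 change -1.82, adjusted p = 0.0362). The HZ and WT mice overlapped (log2 change -0.13, adjusted p = 0.915), and 0.0% of all probe sets were called between them. Leaving out HZ 2, KO 3, WT 1 or WT 2 put the adjusted p of KO against WT at 0.0502 to 0.0698, and leaving out HZ 1, HZ 2, HZ 3, KO 1, KO 3 or WT 2 put that of KO against HZ at 0.0513 to 0.168. The median signal of an array ran between 162.2 and 185.8. The 3'/5' signal ratio of Gapdh, which rises as RNA is shorter or less fully copied, was 11.5 to 27.9, and that of actin 7.80 to 25.1. HZ 2 had the highest of both, and WT 2 the next, at 19.5 and 12.4. Neuron markers passed the filter on mean signal (8 of 8 kept), which is not a detection call on each array. They summed to 19210 to 29680 in the KO mice, 23120 to 27220 in the HZ mice and 24160 to 27660 in the WT mice. The layer IV markers, 2 of 3 kept, with Rorb, summed to 478 to 575 in the KO mice, 815 to 1080 in the HZ mice and 792 to 827 in the WT mice. Astrocyte markers, 7 of 8 kept, summed to 5588 to 8844 in the KO mice, 9502 to 9971 in the HZ mice and 9100 to 11900 in the WT mice. Their part in the values below was not tested. Each mouse gave 1 bulk sample, so that fewer cells of a type and less RNA per cell cannot be told apart.

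No ribosomal protein probe set differed between genotypes after adjustment over all probe sets, and most changes were small. Across the 46 genes, each represented by its brightest probe set, 32 were lower and 14 higher in KO than in WT, with a median log2 change of -0.06, against 0.02 over all 8503 genes tested. Between HZ and WT, 36 were lower and 10 higher, with a median of -0.11, against 0.04 over all genes. Between KO and HZ, 31 were higher and 15 lower, with a median of 0.07, against -0.03 over all genes, and the median was -0.01 with quantile normalization. Over all 8503 genes, 46.4% were lower in KO against WT, 43.3% in HZ against WT and 54.9% in KO against HZ. The HZ and KO comparisons with WT share the 3 WT arrays, so that they are not separate observations. For some genes, Rps6, Rpl39, Rps25, Rps27 and Rpl12 among them, a probe set with several symbols was far brighter than the one used. Rps6 had a KO mean of 330.5 on the probe set used and 15310 on such a probe set.

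The adjusted count was 0 of 86 probe sets in each comparison by limma. The smallest adjusted p was 0.435 in KO against WT, 0.789 in HZ against WT and 0.327 in KO against HZ. At an unadjusted p under 0.05, 2 probe sets were higher and 3 lower in KO than in WT, where 4.43% and 3.59% of all probe sets passed in those directions. In HZ against WT none was higher and 7 were lower, against 4.06% and 2.16% of all probe sets. Between KO and HZ 3 were higher and 1 lower, against 3.96% and 3.76%. Probe sets without overlap between the genotypes numbered 3 higher and 7 lower in KO against WT, where 7.83% and 5.83% of all probe sets did not overlap in those directions. In HZ against WT they numbered 2 higher and 7 lower, against 8.51% and 4.39%. Those between KO and HZ numbered 11 higher and 4 lower, against 6.67% and 7.35%. The share of members lower in HZ was thus above that of the array at the unadjusted threshold, but the 7 probe sets became 2 without HZ 2 and 2 without WT 2. In KO against WT the 3 lower probe sets became 1 without WT 1 and 5 without WT 2. Of the KO and HZ counts, the 3 higher became 5 without WT 2, and the 1 lower became 2 without HZ 1 and 0 without HZ 3.

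**Figure D1:**
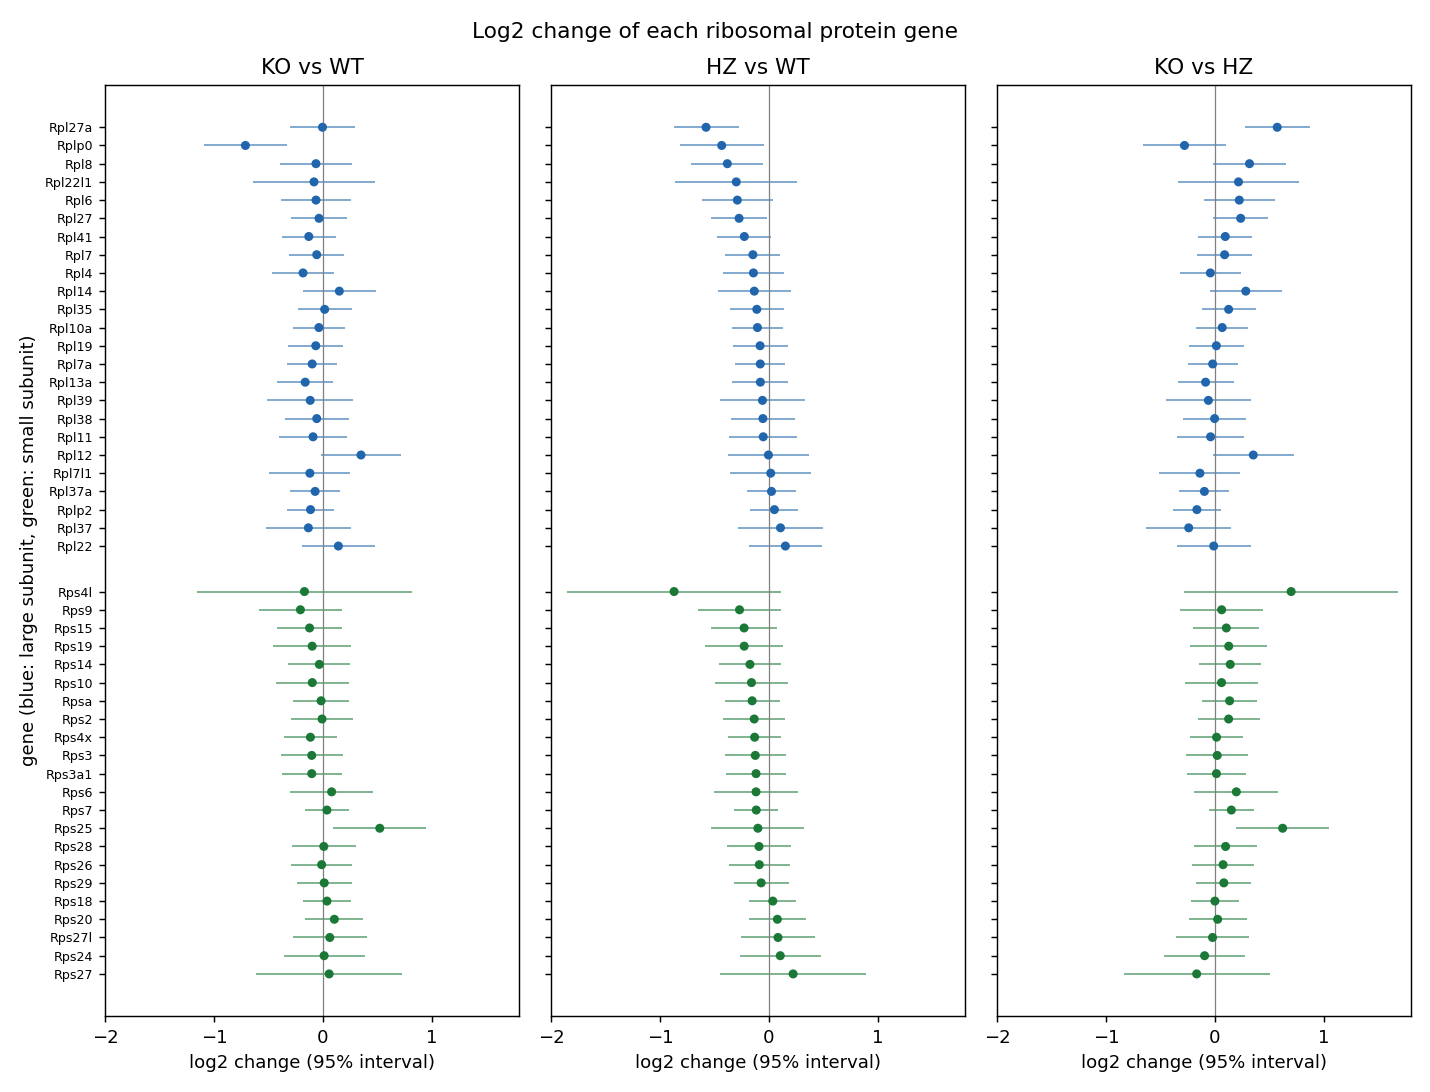
Log2 change of each of the 46 genes in KO against WT, HZ against WT and KO against HZ, with its 95% interval from the limma fit, for the brightest probe set of each gene. Large subunit genes are blue and small subunit genes green, both sorted by HZ against WT, and most intervals cross 0; Rplp0 is lowest in KO against WT, and Rpl27a and Rps25 are farthest from 0 among the rest in KO against HZ, apart from the widely spread Rps4l.

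The level of the module varied as much among mice of a genotype as between genotypes. The median deviation of the 46 genes from their mean over all 9 arrays was -0.06, 0.08 and 0.04 in KO 1, 2 and 3, -0.10, -0.10 and 0.06 in HZ 1, 2 and 3, and -0.05, 0.17 and 0.05 in WT 1, 2 and 3. HZ 3 lay with the higher arrays, WT 1 with the lower, and the 3 genotypes overlapped throughout. The group means were 0.02 ± 0.07 in KO, -0.05 ± 0.10 in HZ and 0.06 ± 0.11 in WT (SD, n = 3 each), and the spread within genotypes was 0.093 (pooled SD). WT 2, which was highest, also had the highest sum of microglia markers (3 of 8 kept), 2998, against 1283 to 1834 on all other arrays, C1qa being the dimmest of the 8. It had the highest sum of oligodendrocyte lineage markers too (6 of 7 kept), 6925, against 3297 to 5740, and the lowest of cycling progenitor markers (7 of 7 kept), 3321, against 3649 to 4443. The part of these in the ribosomal protein values was not tested. Without WT 2 the median over the members was 0.02 in KO against WT and -0.06 in HZ against WT. The pattern of the 95 kept probe sets with several symbols was alike in sign, with medians of -0.02 in KO against WT, -0.10 in HZ against WT and 0.07 in KO against HZ. Most of the genes they name had no member probe set, so that they are largely other ribosomal protein genes, read together with pseudogenes or predicted genes.

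**Figure D2:**
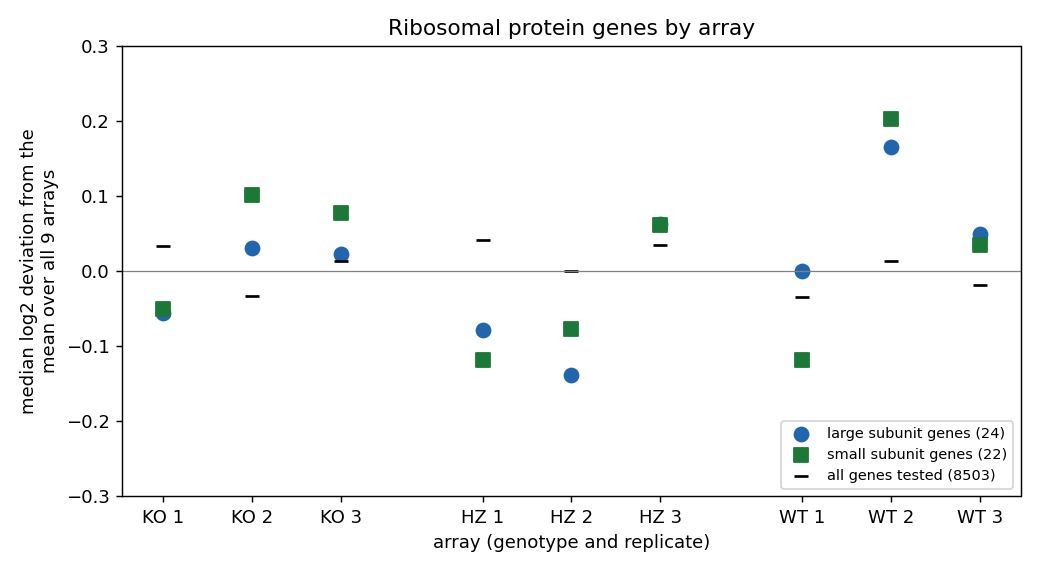
Median log2 deviation from the mean over all 9 arrays, by array, for the 24 large subunit genes, the 22 small subunit genes and all 8503 genes tested. WT 2 is highest for both subunits, HZ 1 and HZ 2 lie below 0 for both, WT 1 is low for the small subunit (-0.12) and at 0 for the large, and KO arrays lie within the range of the others.

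The subunits were then compared. In KO against WT the 24 large subunit genes had a median log2 change of -0.07 (4 higher, 20 lower) and the 22 small subunit genes -0.01 (10 higher, 12 lower). In HZ against WT these were -0.09 (5 higher, 19 lower) and -0.12 (5 higher, 17 lower). In KO against HZ the large subunit genes had a median of 0.01 (12 higher, 12 lower) and the small subunit genes 0.08 (19 higher, 3 lower). The difference between the median deviations of large and small subunit genes on an array was -0.01, -0.07 and -0.06 in the KO mice, 0.04, -0.06 and 0.001 in the HZ mice, and 0.12, -0.04 and 0.02 in the WT mice. The 3 genotypes overlapped, with means of -0.044 ± 0.033 in KO, -0.007 ± 0.051 in HZ and 0.032 ± 0.079 in WT (SD, n = 3 each, pooled SD 0.058). A second measure was the median log2 change of the large minus that of the small subunit genes. In KO against WT it was -0.06, or -0.01 without WT 1 and -0.098 without WT 2. In HZ against WT it was 0.025, although the array mean was lower in HZ than in WT. It turned to -0.023 without HZ 2 and -0.064 without WT 2. In KO against HZ the sign of this second measure depended on the probe sets. Without those whose names mark sequence shared with other transcripts it was 0.03 rather than -0.07.

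Of the 46 genes, Rplp0 of the large subunit stalk lay farthest below WT in the KO mice. Rplp0, the stalk base that joins the P1 and P2 proteins to the subunit, had a signal of 5452, 6181 and 7292 in the KO mice, 6113, 6840 and 10510 in the HZ mice, and 9813, 11040 and 10010 in the WT mice. All 3 KO mice and HZ 1 and HZ 2 lay below every WT mouse, and HZ 3 lay among the WT mice. The change was -0.71 ± 0.18 (SE) on the log2 scale in KO against WT (1.64-fold lower, unadjusted p = 0.00153, adjusted p = 0.435 by limma), and -0.43 ± 0.18 in HZ against WT (adjusted p = 0.789). Rplp0 is a common reference gene for quantitative PCR. Rplp2, one of the acidic P proteins of the stalk, had 7862, 7998 and 8082 in the KO mice, 8286, 9348 and 9246 in the HZ mice, and 8312, 8360 and 9275 in the WT mice. Its KO arrays lay just below all others, with a log2 change of -0.11 ± 0.10 against WT (adjusted p = 0.811).

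Rpl12, which sits at the stalk base beside Rplp0, differed by probe set. Its own probe set had 362, 331 and 345 in the KO mice, 272, 237 and 295 in the HZ mice, and 323, 236 and 251 in the WT mice. The KO mice were above both other genotypes, with a log2 change of 0.35 ± 0.17 against WT (adjusted p = 0.647). The probe sets that also carry predicted genes had the opposite sign. One had 3352, 4142 and 4405 in the KO mice, 4454, 3157 and 5359 in the HZ mice, and 5066, 5107 and 5550 in the WT mice (log2 change -0.41 in KO against WT, unadjusted p = 0.0382). The other had a log2 change of -0.32 (unadjusted p = 0.0246). Rplp1, seen only with a predicted gene, had 12200, 13200 and 13450 in the KO mice, 11300, 10340 and 13010 in the HZ mice, and 11060, 14110 and 12680 in the WT mice, and its genotypes overlapped (log2 change 0.04 in KO against WT).

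The proteins that bind the 5S ribosomal RNA had overlapping values. Rpl11, which with Rpl5 and the 5S RNA can bind Mdm2, had 4699, 5387 and 5292 in the KO mice, 5632, 4378 and 5889 in the HZ mice, and 4722, 6086 and 5637 in the WT mice, and all genotypes overlapped (adjusted p = 0.898 in KO against WT). Rpl5, measured on 3 probe sets shared with a pseudogene, had log2 changes of -0.03, -0.12 and -0.20 in KO against WT. The 5 measured genes at the polypeptide exit tunnel (of 9 in the list), among them Rpl4, had a median of -0.07 in KO against WT and -0.08 in HZ against WT. Rpl4, whose loop lines the tunnel, had 7784, 9488 and 10990 in the KO mice, 9926, 8628 and 10330 in the HZ mice, and 10040, 11050 and 10720 in the WT mice. KO 3 lay among the WT mice, and the log2 change was -0.18 ± 0.13 (adjusted p = 0.756).

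In 3 of the 46 genes (6.52%), all of the large subunit, every HZ mouse lay below every mouse of both other genotypes, against 1.07% of all 8503 genes tested. Every KO mouse lay above both other genotypes in 3 genes, Rpl12, Rpl14 and Rps25 (6.52%, against 2.16% of all genes), and below both in 1, Rplp2 (2.17%, against 2.22%). None had every HZ mouse above both others (against 1.87% of all genes), every WT mouse above both (1.28%) or every WT mouse below both (2.36%). With 46 genes these shares turn on single genes. For Rpl12, Rpl14 and Rps25, the brighter probe sets that carry other symbols did not have every KO mouse above both other genotypes. Rpl27a had 1549, 1714 and 1569 in the KO mice, 1170, 1018 and 1045 in the HZ mice, and 1715, 1654 and 1482 in the WT mice. Every HZ mouse lay below every KO and WT mouse, while KO and WT overlapped. The log2 change was -0.58 ± 0.14 in HZ against WT (unadjusted p = 0.00108, adjusted p = 0.789) and 0.57 ± 0.14 in KO against HZ (adjusted p = 0.327). Another probe set, shared with predicted genes, did not show the pattern, with 6267, 8106 and 7551 in the KO mice, 6001, 8475 and 7230 in the HZ mice, and 6983, 9317 and 7812 in the WT mice (log2 change -0.16 in HZ against WT).

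Rpl8, which lies near the peptidyl transferase centre, had 9128, 9454 and 11850 in the KO mice, 8199, 7079 and 9066 in the HZ mice, and 9214, 13100 and 9668 in the WT mice. All HZ mice were below the others, by a small margin for HZ 3 (log2 change -0.38 ± 0.15 in HZ against WT, adjusted p = 0.789). Rpl27 had 5946, 5785 and 6061 in the KO mice, 5498, 4424 and 5213 in the HZ mice, and 5676, 6424 and 6161 in the WT mice, again with HZ below both (log2 change -0.27 ± 0.12 in HZ against WT, adjusted p = 0.789). Its 3 kept probe sets were all lower in HZ than in WT (-0.27 to -0.09) and all higher in KO than in HZ (0.24 to 0.34). HZ 2, the array with the highest 3'/5' ratios, was lowest of the 9 arrays for Rpl8, Rpl27 and Rpl27a. Rpl14 was higher in KO than in HZ in its own probe set (log2 change 0.28 ± 0.15, adjusted p = 0.705), and so were the 5 probe sets shared with its pseudogene (0.15 to 0.42, of which 3 had an unadjusted p under 0.05). In KO against WT these 5 had log2 changes of 0.05 to 0.12, and KO and WT overlapped in each.

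Among small subunit proteins, Rps25, a head protein used by some viral internal ribosome entry sites, had the smallest p in KO against WT. It had 493, 366 and 374 in the KO mice, 286, 196 and 308 in the HZ mice, and 287, 256 and 294 in the WT mice. Every KO mouse lay above all others. The log2 change was 0.52 ± 0.20 in KO against WT (1.44-fold higher, unadjusted p = 0.0201, adjusted p = 0.541) and 0.62 ± 0.20 in KO against HZ (adjusted p = 0.487). The probe set shared with predicted genes had a log2 change of 0.05 in KO against WT and -0.15 in KO against HZ, with 6006, 7615 and 6103 in the KO mice, 7120, 6655 and 7997 in the HZ mice, and 5557, 7026 and 6465 in the WT mice.

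**Figure D3:**
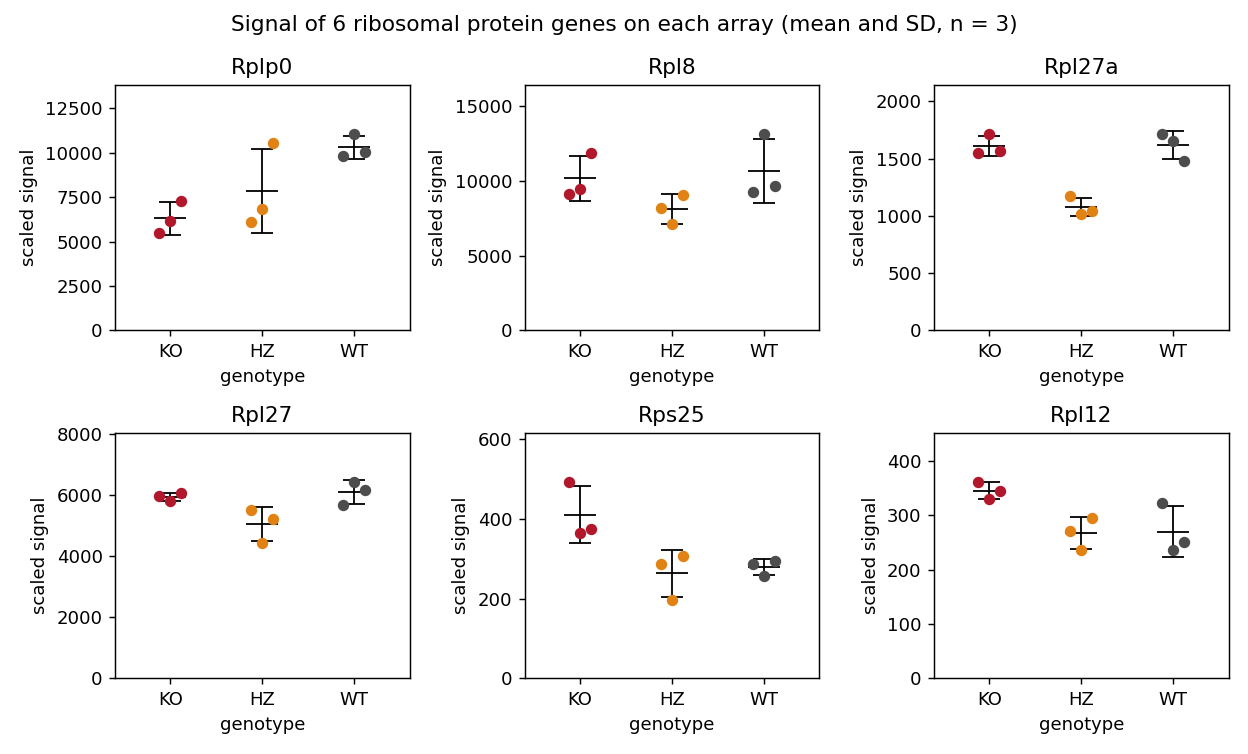
Scaled signal of Rplp0, Rpl8, Rpl27a, Rpl27, Rps25 and Rpl12 on each array, with points for mice, bars for the mean and SD of 3 mice, and axes from 0. As plotted, Rplp0 is low in KO, Rpl27a, Rpl8 and Rpl27 are low in HZ, and Rps25 and Rpl12 are high in KO. Brighter probe sets of Rpl27a, Rps25 and Rpl12 that carry other symbols are not plotted and did not have these patterns. Those of Rpl12 were lower in KO than in WT. No difference passed the adjusted threshold.

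By place in the small subunit, medians were nearer 0 in KO than in HZ against WT. The 9 measured head proteins, Rps25 among them, had a median of 0.01 in KO against WT, -0.10 in HZ against WT and 0.08 in KO against HZ. In KO against HZ 9 of 9 were higher, by as little as 0.001, and 20 of their 23 probe sets. Of all genes, 54.9% were lower there. The 11 measured body proteins had medians of -0.01, -0.12 and 0.08 in the same comparisons, with 9 of 11 higher in KO against HZ. Rpsa, the laminin receptor precursor, had 17970, 18570 and 20600 in the KO mice, 17200, 15620 and 19270 in the HZ mice, and 17080, 22490 and 18540 in the WT mice, and all genotypes overlapped. Rps19, of which mutations cause Diamond-Blackfan anaemia in humans, had 4394, 5050 and 4848 in the KO mice, 4171, 3645 and 5422 in the HZ mice, and 4527, 6224 and 4694 in the WT mice, with overlap throughout. Rps6, the substrate of S6 kinase, had 298, 357 and 336 in the KO mice, 255, 345 and 264 in the HZ mice, and 274, 359 and 305 in the WT mice, also with overlap. On its 8 kept probe sets shared with a pseudogene, the log2 changes in KO against WT ran from -0.12 to 0.11.

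Further genes were named by p-value and not by size, the 4 of smallest p in each direction. In KO against WT, Rps9 and Rpl13a were among those below WT (log2 changes -0.21 and -0.16), and Rpl14 (0.15) and Rpl22 (0.14) among those above. The 4 above WT in HZ were Rps27 (0.22), Rpl22 (0.15), Rps24 (0.11) and Rps20 (0.08). A brighter probe set that Rps27 shares with Rps27rt had the opposite sign in HZ against WT (-0.10). Those below HZ in KO were Rplp0 (-0.28), Rpl37 (-0.24), Rplp2 (-0.17) and Rpl37a (-0.10). Of the probe sets that Rpl37 shares with Rpl37rt, the brightest had 0.10 in KO against HZ and the others -0.13 and -0.08. The smallest adjusted p among these values was 0.754. Rpl22 turned to -0.03 in KO and -0.02 in HZ without WT 2, and Rps20 in HZ to -0.02 without WT 1 and to -0.002 without HZ 2. The paralogs were read on few probe sets. Rpl3l, a muscle form, had at most 27.4 on any array, and Rpl39l, known from testis, 19.2 to 226.5, and both were below the filter. Rps27l, a p53 target, was higher in HZ and KO than in WT on all 3 of its probe sets (0.08 to 0.37 in HZ against WT, 0.06 to 0.30 in KO against WT), and none passed the adjusted test. Rpl22l1 and Rpl7l1 were lower in KO than in WT on their brightest probe set, by log2 changes of -0.08 and -0.12. Rps4l, on 1 widely spread probe set with 78 to 474, had the lowest change of the 46 genes in HZ against WT. It was -0.87 ± 0.46 there (adjusted p = 0.79 by limma). In KO against HZ Rps4l had the highest, 0.70 ± 0.46 (adjusted p = 0.765 by limma).

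**Figure D4:**
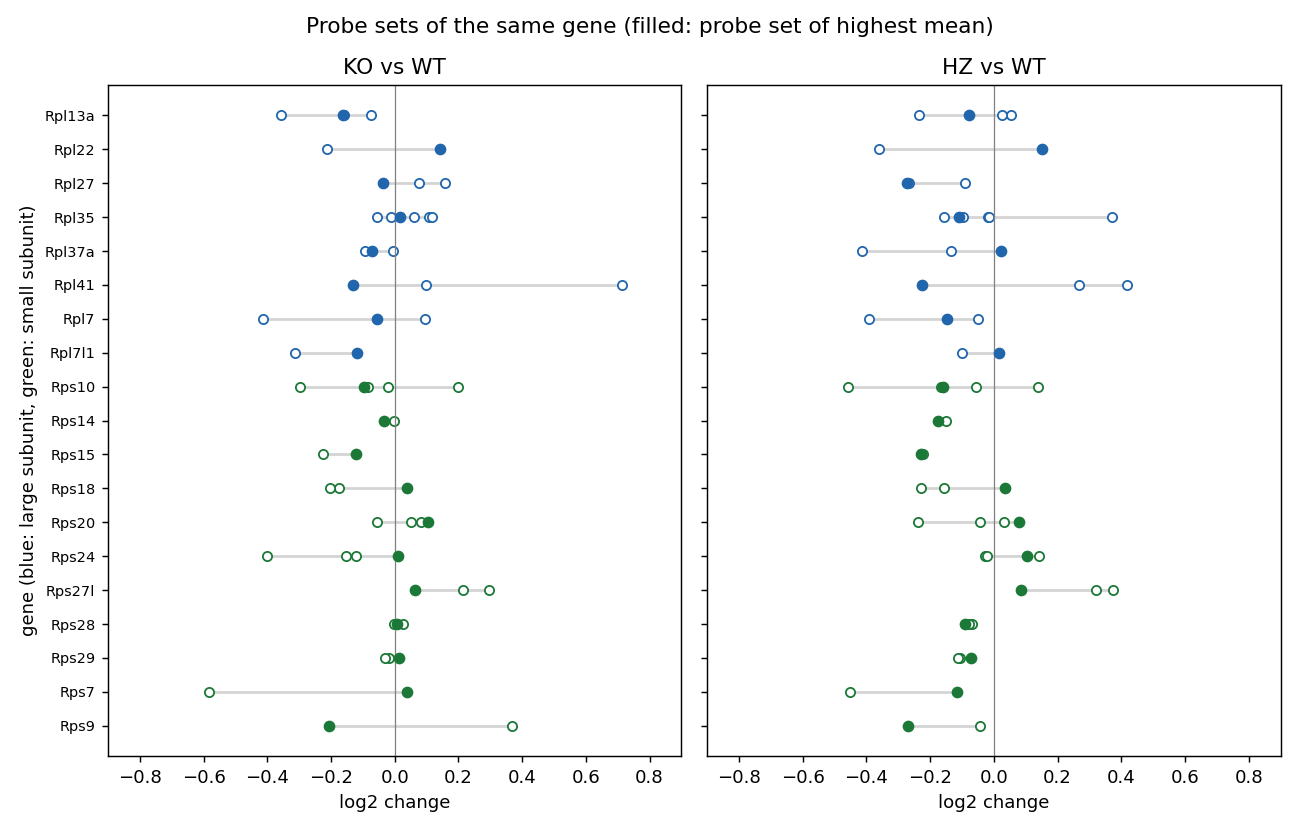
Log2 change in KO against WT and in HZ against WT of each kept probe set, for the 19 genes with more than 1, with the brightest probe set filled. Probe sets of a gene often lie on both sides of 0, as for Rpl41, Rps7, Rps9 and Rpl22 in KO against WT.

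Probe sets of the same gene gave different signs more often than not in KO against WT. In the 19 genes with more than 1 kept probe set, signs agreed in 6 genes in KO against WT, in 9 in HZ against WT and in 9 in KO against HZ. Genes that disagreed by over 0.3 were Rpl22, Rpl41, Rpl7, Rps10, Rps24, Rps7 and Rps9 in KO against WT, Rpl22, Rpl35, Rpl37a, Rpl41, Rps10 and Rps20 in HZ against WT, and Rpl13a, Rpl35, Rpl37a, Rpl41 and Rps20 in KO against HZ. Rpl41 had -0.13 on its brightest probe set and 0.71 on another in KO against WT, the second with 224, 227 and 188 in the KO mice, 188, 185 and 141 in the HZ mice, and 85, 115 and 189 in the WT mice. The same pair gave -0.23 and 0.42 in HZ against WT. Rps7 had 0.04 and -0.58 in KO against WT, Rps9 -0.21 and 0.37, Rpl22 0.14 and -0.21, Rps24 0.01 to -0.40, Rpl7 -0.42 to 0.09, and Rps10 -0.30 to 0.20. In HZ against WT, Rpl37a had 0.02 and -0.42 at the extremes, Rpl35 -0.16 and 0.37, Rps20 -0.24 and 0.08, Rps10 -0.46 and 0.14, and Rpl22 -0.36 and 0.15. For KO against HZ, Rpl13a had -0.38 to 0.07, Rpl35 -0.38 to 0.21, Rpl37a -0.10 to 0.32, Rpl41 -0.17 to 0.30, and Rps20 -0.01 to 0.29. The Rpl35 values of 0.37 and -0.38 came from 1 dim probe set, at 111 to 175, and the other 5 agreed in sign. The Rps7 value of -0.58 came from a probe set at 2028 to 6669. Some signs differed only close to 0, as in Rps28 (-0.002 to 0.025 in KO against WT). The values per gene given above follow the brightest probe set of each gene among those with 1 symbol.

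Ribosomal protein genes had a lower SD among mice of one genotype than the array as a whole, and were not compared with genes of matched brightness. The median SD of log2 signal within genotypes was 0.172 over members, 0.153 in the large and 0.183 in the small subunit, against 0.226 over all 8503 genes. It was lowest for Rplp2 (0.076), Rps7 (0.078) and Rpl37a (0.095), and highest for Rps4l (0.77), Rps27 (0.489) and Rpl22l1 (0.421). The probe sets used for Rps4l and Rps27 had low signal, 78 to 474 and 174 to 435. The probe set that Rps27 shares with Rps27rt had 6707 to 8792 and was not part of these SDs. Members were weakly correlated over the 9 arrays, with a median pairwise Pearson correlation of 0.19 among large subunit genes (276 pairs), 0.31 among small subunit genes (231 pairs) and 0.25 between the subunits (528 pairs), against 0.02 over all pairs of genes tested. Among the 34 members with a mean signal over 3000 the median was 0.46 (561 pairs), and correlations among other genes of like brightness were not computed. These correlations describe 9 arrays that share amplification, scaling and RNA quality.

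**Figure D5:**
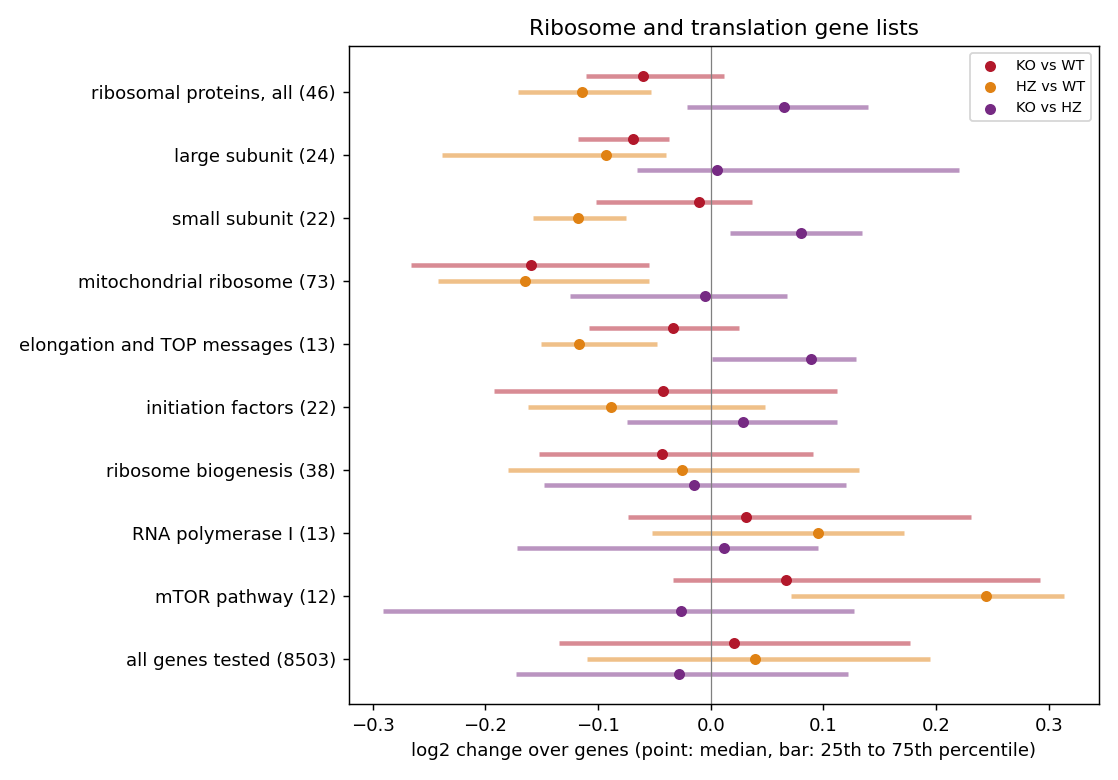
Median log2 change (points) with the 25th to 75th percentile (bars) over the genes of the ribosome and translation lists in KO against WT, HZ against WT and KO against HZ, beside all 8503 genes tested. Of the 10 sets plotted, the mitochondrial ribosome has the lowest median against WT in both genotypes, and the mTOR pathway the highest in HZ against WT.

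Other genes of protein synthesis were set beside the members. No gene of these lists passed the adjusted test. Elongation factors and other genes with a terminal oligopyrimidine tract (13 genes) had median log2 changes of -0.03 in KO against WT, -0.12 in HZ against WT (11 of 13 lower) and 0.09 in KO against HZ. Hnrnpa1, an RNA-binding protein of that list, had 1620, 1342 and 654 in the KO mice, 686, 477 and 563 in the HZ mice, and 700, 926 and 687 in the WT mice, with a log2 change of 0.96 in KO against HZ (adjusted p = 0.441). KO 1 and KO 2 were above all other arrays, and KO 3 was among the HZ values. Initiation factors (22 genes) had -0.04, -0.09 and 0.03. Eif4g2, which supports initiation without a cap-binding protein, had 12900, 12720 and 13510 in the KO mice and 9536, 11360 and 11140 in the WT mice (log2 change 0.29, adjusted p = 0.537), with KO above WT. Eif2s3x, a subunit of eIF2, was higher in every KO mouse than in every WT and HZ mouse (log2 change 0.48 against WT, adjusted p = 0.61).

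Ribosome biogenesis factors (38 genes) had medians of -0.04 in KO against WT, -0.03 in HZ against WT and -0.02 in KO against HZ. Nmd3, an export adaptor of the large subunit, had 451, 487 and 717 in the KO mice and 939, 962 and 768 in the HZ mice, and every KO mouse lay below every HZ mouse (log2 change -0.70, adjusted p = 0.374). RNA polymerase I and its factors (13 genes) had 0.03, 0.10 and 0.01. The mTOR pathway (12 genes) had 0.07, 0.24 (9 of 12 higher) and -0.03. Eif4ebp2, an inhibitor of cap-dependent translation, had 387, 301 and 328 in the KO mice, 391, 507 and 424 in the HZ mice, and 287, 372 and 350 in the WT mice (log2 change 0.38 in HZ against WT, adjusted p = 0.789). Mitochondrial ribosomal proteins (73 genes) had -0.16 in KO against WT (62 lower), -0.17 in HZ against WT (63 lower) and -0.01 in KO against HZ. Against WT these medians lay farther below 0 than those of the cytosolic ribosome.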

How the data were processed

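The authors deposited linear intensities, 1 per probe set, made by MAS5 in Affymetrix's Expression Console, as the submitters' processing notes state; the notes used here give neither version nor scaling target. Trimmed means of the arrays were 500.18 to 500.2. Of 22690 probe sets, 20393 had 1 gene symbol, 691 several, 1555 none, and 64 were controls. Signals were used as log2(signal + 16). Ranked by mean, the top 60% (13576, mean at least 118) were tested for genotype over the 9 arrays in limma 3.58.1 under R 4.3.3, with an intensity trend and 6 residual plus 6.94 prior degrees of freedom. Tests were 2-sided, and adjustment (Benjamini-Hochberg, 0.05) covered all tested probe sets. Exact permutation tests of 3 against 3 cannot go below p = 0.1 and were not used. In simulated data, 13576 probe sets were drawn independently of each other and 200 were changed in KO. There 62.4% of 2-fold and 95.7% of 4-fold KO changes were recovered, with 3.9% false calls. The real KO and WT arrays gave 1 call, so that these shares need not hold for them. Each gene was read from its 1-symbol probe set of highest mean, even where a probe set with several symbols was brighter. Named genes are Gap43, the 4 members of smallest p in each direction and comparison, stalk, 5S-binding and chosen small subunit genes, paralogs, members whose probe sets differ in sign by over 0.3, and up to 2 genes of other lists per comparison. Rps4l was also named, for its spread and the size of its changes. Alternatives covered scaling, filter, pseudocount, trend, array weights, the 3'/5' ratio, probe set choice and leaving out each array. Members and lists were chosen with earlier results of these data known.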

Additional observations from a re-analysis of the deposited data

How the results depend on the processing

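Members called after adjustment numbered 0 in all 20 alternatives of each comparison, and of 480 values for the 24 named changes, 476 kept sign and side of the threshold (lowest adjusted p 0.183). The median over members stayed within the spread between arrays, at -0.10 to 0.02 in KO against WT, -0.15 to -0.06 in HZ against WT and -0.01 to 0.12 in KO against HZ. Counts at unadjusted p under 0.05 were chosen for these checks after the data were seen. Higher in KO than WT (2) became 4 without a filter and 1 with a stricter one, and lower (3) became 6 with array weights and 1 to 5 leaving out an array. Higher in HZ than WT (0) became 1 with the 3'/5' ratio, 2 with array weights, 2 without a filter, 1 without a trend and 0 to 2 leaving out an array. Lower there (7) became 4 with array weights, 3 without a trend and 2 to 10 leaving out an array. Higher in KO than HZ (3) became 5 with array weights, 7 with one median per array, 5 with quantile normalization and 2 to 5 leaving out an array. Lower there (1) became 2 with array weights, 3 without a filter, 2 without a trend, 2 with quantile normalization and 0 to 2 leaving out an array. The median log2 change of the large minus that of the small subunit genes was 0.026 in KO against HZ without probe sets of shared sequence. In HZ against WT it was -0.064 (without WT 2) to 0.049 leaving out an array. The Gap43 adjusted p in KO against WT was 0.146 with 2 genotypes, 0.204 without a filter, 0.0824 without a trend and 0.0044 to 0.0698 leaving out an array. In KO against HZ it was 0.0697, 0.287 and 0.144 under those settings, 0.0681 with one median, 0.0786 with quantile normalization and 0.0082 to 0.168 leaving out an array. In HZ against WT it was 0.821 to 0.987, with the sign turned without WT 1. Leaving out an array gave Rpl22 -0.017 to 0.281 in HZ against WT and -0.027 to 0.271 in KO against WT, and Rps20 -0.022 to 0.183. The causes were not tested. With replicate numbers as a replicate block, Gap43 had an adjusted p of 0.0489 in KO against WT and 8 member probe sets were lower in HZ than WT at unadjusted p under 0.05, and no call changed. Same-numbered arrays correlated at -0.255 to 0.111 in their deviations, so the numbers were not taken to pair the mice.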
